A study of Mus musculus with 4 samples.

Results

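The Cep genes encode proteins of the centrosome, the organelle that organises the microtubules of an animal cell. They were taken as every gene of the deposited table whose symbol begins with Cep followed by a digit, which gave 38 of the 22063 genes listed, and the rule itself used no fold change or p-value. The name records where the proteins were found, so the genes share a place in the cell and are not a single sequence family.

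A centrosome holds a pair of centrioles, short barrels of microtubules, in a cloud of pericentriolar material that nucleates new microtubules. Once per cell cycle each centriole templates a new one, and the linker that ties the pair together is dissolved before mitosis. In a resting cell the older centriole, marked by distal and subdistal appendages, docks at the membrane and builds the primary cilium, whose base is guarded by the transition zone. Centriolar satellites are granules that carry proteins to and from these structures, and Cep55 acts elsewhere, at the midbody that daughter cells cut at the end of division.

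ID8 is an established mouse ovarian cancer cell line derived from ovarian surface epithelium. The 4 libraries were 2 from ID8 cells with a control shRNA (shCtrl, labelled wild type) and 2 from ID8 cells with an shRNA against Usp9x (shUSP9X, labelled as knockdown). The labels give no further treatment, and the oxygen level, any added TGF-β1 and which of the study's hairpins these libraries carry are not given in the sources used here. Poly(A)-selected mRNA was sequenced, and the deposited estimated counts summed to 17232006 and 15611363 in shCtrl and to 19978889 and 17021261 in shUSP9X. Nothing in the labels says that the 2 libraries of a group came from separate cultures, so the p-values measure only the spread between these libraries, which may be technical. Loss of Usp9x cannot be told apart from an effect of the hairpin or of separate culture. In RNA from many cells, fewer cells of a kind and less RNA per cell cannot be told apart either.

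The targeted gene was checked first. Usp9x, which encodes a deubiquitinating enzyme, had 298 and 282 CPM (read count scaled to library size, with TMM normalisation) in shCtrl and 19.7 and 20.5 CPM in shUSP9X. The libraries thus matched their labels, with a log2 fold change of -3.85 (SE 0.06, adjusted p = 4.66e-26, edgeR's quasi-likelihood test with Benjamini-Hochberg adjustment). Of 10 epithelium and mesothelium markers, Krt8, Krt18, Krt19, Msln, Wt1, Upk1b and Upk3b each exceeded 150 CPM in every library, while Krt7 had at most 3 counts, Pax8 at most 9 and Lrrn4 at most 23.

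Most Cep mRNAs were lower in the shUSP9X libraries. After the filter on low counts 37 Cep genes were tested. At an adjusted p under 0.05, 24 of these were lower in shUSP9X, 4 were higher and 9 did not pass that threshold. Among all 11448 genes tested, 33.6% were lower and 33.8% higher. At the cutoff of the study's methods, an unadjusted p under 0.05 with a fold change above 1.5, 18 Cep genes were lower and 1, Cep295nl, was higher, against 18.7 and 10.8% of all genes. The study's methods name DESeq2 for this cutoff, and here it was applied to the edgeR fit. The median log2 fold change of the Cep genes was -0.56, beside -0.00 for all genes tested. A log2 fold change under -2 was reached by 5 Cep genes (3.23% of all genes) and under -1 by 11 (10.6%), while 0 exceeded 1 (3.56%). The direction of this shift did not survive an offset for coding base content and length, described further on, under which 10 Cep genes were lower, 10 higher and their median was 0.01.

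The summed Cep level was 1456 and 1466 CPM in shCtrl and 1058 and 1040.0 CPM in shUSP9X, or between 0.103 and 0.148% of all counts. A large part came from 1 gene that moved the other way. Cep170b, the most abundant by counts, made up 13.4 and 15.1% of the Cep counts in shCtrl and 26.3 and 26.0% in shUSP9X. Without it the sum went from 1261 and 1244 to 780 and 770 CPM. Cep112 was the gene that failed the filter, with 10, 6, 1 and 1 counts in the 4 libraries.

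**Figure D1:**
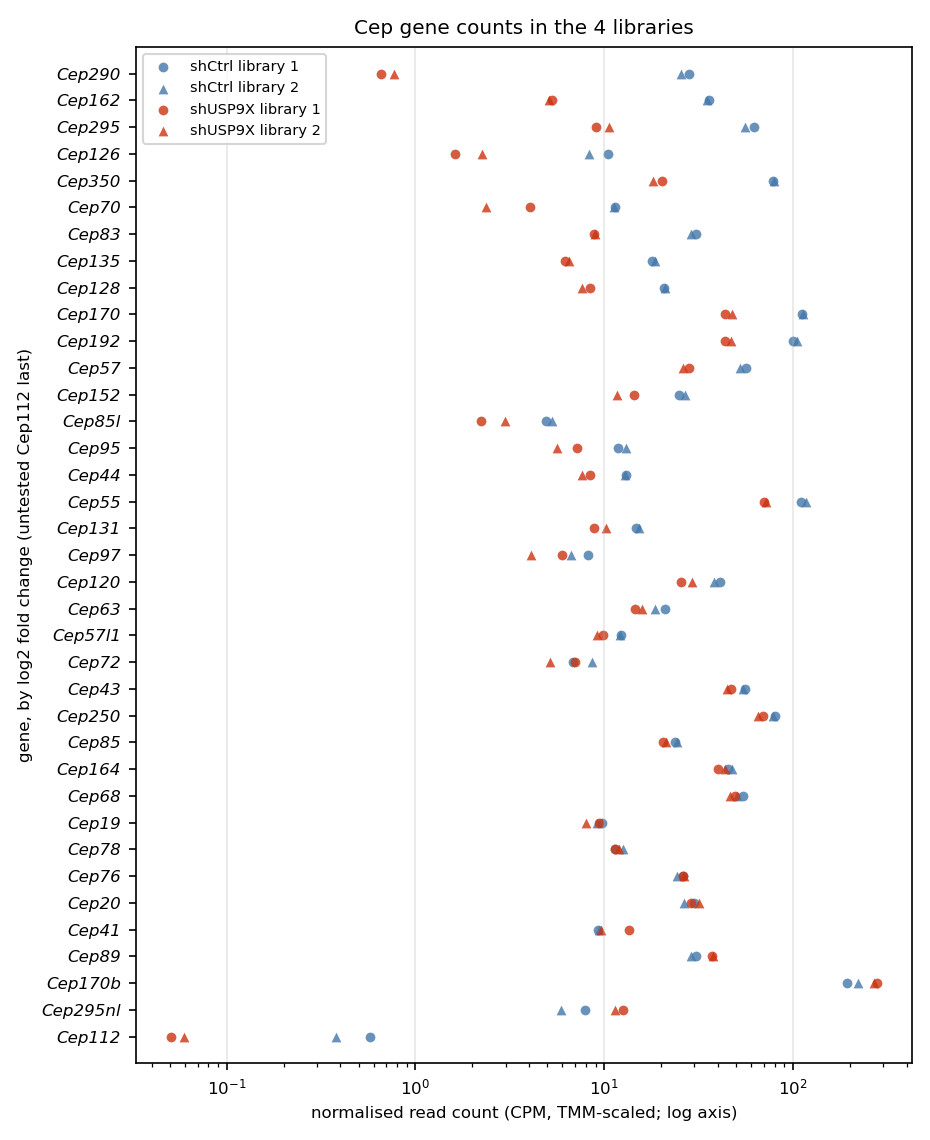
Normalised read count of 37 of the Cep genes in each library (points, log axis in CPM), blue for shCtrl and red for shUSP9X. Genes are ordered from the lowest to the highest log2 fold change, with the untested Cep112 last. The groups lie far apart for Cep290, at 25.4 CPM or more against 0.772 CPM or less, and draw together towards Cep78 and Cep76, where they overlap.

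The coding sequences of these genes differ in base content, and 6 stretches are shown because fold change and adenine content moved together across the Cep genes. Each is the 120-base, in-frame window of the coding sequence whose adenine content lies nearest to that of the whole coding sequence, from GENCODE M21 transcripts (GRCm38), written 5′ to 3′ with adenines in capitals. The first 3 belong to the genes with the lowest log2 fold changes and the last 3 to genes among the 4 with the highest.
Cep290: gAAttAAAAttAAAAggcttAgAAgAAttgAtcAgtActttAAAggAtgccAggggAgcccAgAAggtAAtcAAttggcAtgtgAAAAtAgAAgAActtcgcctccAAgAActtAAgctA
Cep162: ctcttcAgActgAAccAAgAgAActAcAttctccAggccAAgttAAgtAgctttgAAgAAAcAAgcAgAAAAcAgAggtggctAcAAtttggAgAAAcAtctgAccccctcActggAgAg
Cep295: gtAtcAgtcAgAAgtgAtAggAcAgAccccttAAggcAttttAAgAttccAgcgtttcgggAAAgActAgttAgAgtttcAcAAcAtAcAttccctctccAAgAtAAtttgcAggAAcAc
Cep89: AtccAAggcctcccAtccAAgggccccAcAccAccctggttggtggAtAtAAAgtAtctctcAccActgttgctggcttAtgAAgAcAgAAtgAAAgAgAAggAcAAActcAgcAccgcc
Cep170b: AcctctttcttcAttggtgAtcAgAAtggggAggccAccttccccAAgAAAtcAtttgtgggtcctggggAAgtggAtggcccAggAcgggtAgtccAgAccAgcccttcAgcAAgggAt
Cep295nl: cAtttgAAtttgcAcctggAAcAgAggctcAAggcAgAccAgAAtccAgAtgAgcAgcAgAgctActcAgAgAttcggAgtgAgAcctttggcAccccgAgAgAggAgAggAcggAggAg
Adenine makes up 40.0, 35.8 and 32.5% of the first 3 windows and 30, 22.5 and 30.8% of the last 3. The windows span coding positions 3967 to 4086 of 7440 in Cep290, 1975 to 2094 of 4212 in Cep162, 3664 to 3783 of 7383 in Cep295, 1039 to 1158 of 2376 in Cep89, 2353 to 2472 of 4725 in Cep170b and 829 to 948 of 1602 in Cep295nl.

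Among genes of the appendages, transition zone and cilium, 5 of 12 (41.7%) were lower and 2 higher, beside 33.6 and 33.8% of all genes. The median log2 fold change was -0.13, and the group held both the lowest Cep gene and 2 of the 4 higher ones. With the coding offset 3 were lower and 4 higher, beside 27.1 and 37.1% of all genes. Cep290 (chr10:100487558-100574840, plus strand) encodes a gatekeeper of the transition zone and is a known ciliopathy gene. It had 28.0 and 25.4 CPM in shCtrl and 0.658 and 0.772 CPM in shUSP9X, from 485 and 402 estimated counts against 12.5 and 12.8. The shCtrl mean was 37.4 times the shUSP9X mean, and the log2 fold change was -5.22 (SE 0.19, edgeR adjusted p = 2.32e-18). This value lay below the -3.85 of the targeted Usp9x, but with the coding offset Cep290 was at -1.35 and Usp9x at -2.72.

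Cep162 (chr9:87189577-87255536, minus strand), which sits at the distal end of centrioles and promotes transition zone assembly, had 35.9 and 34.8 CPM in shCtrl and 5.31 and 5.10 CPM in shUSP9X. Both knockdown libraries lay well below both controls (log2 fold change -2.76, SE 0.12, edgeR adjusted p = 7.12e-17). Cep83, a distal appendage protein, had 30.5 and 28.9 CPM against 8.80 and 8.90 CPM (log2 fold change -1.75). The subdistal appendage gene Cep128 had a log2 fold change of -1.37, and Cep43, whose product acts in microtubule anchoring at the centriole, one of -0.25. Cep43 lost its call with the GC content and length offset, at 0.11, and with the coding offset, at -0.06.

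Of the members that rose, Cep89, another distal appendage gene, had 30.5 and 28.9 CPM in shCtrl and 37.1 and 37.6 CPM in shUSP9X (log2 fold change 0.33, SE 0.08, edgeR adjusted p = 0.00108). Thus 2 genes of 1 structure, Cep83 and Cep89, were changed in opposite directions, although with the coding offset both were higher (0.61 and 0.76). The third distal appendage gene of the set, Cep164, had a log2 fold change of -0.15 and did not pass the threshold (edgeR adjusted p = 0.0776). Without an offset Cep19, Cep78, Cep20 and Cep41 did not pass it either, at -0.11, -0.04, 0.10 and 0.33. Cep41 was called higher with the GC content and length offset, at 0.40, and with the coding offset, at 0.41. Cep20 was called higher with the GC content and length offset only, at 0.29. For Cep41, a gene linked to glutamylation of ciliary tubulin, the groups did not overlap, at 9.28 and 9.36 CPM against 13.6 and 9.62 CPM.

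Genes of centriole duplication and assembly were lower in 10 of 12 cases and higher in 0, against 33.6 and 33.8% of all genes. Their median log2 fold change was -0.62. With the GC content and length offset 9 were lower and 1 higher, beside 27.9 and 35.2% of all genes, and with the coding offset 4 and 2, beside 27.1 and 37.1%. Cep295 (chr9:15316915-15357788, minus strand), needed for a new centriole to mature into a centrosome, led them with 62.0 and 55.8 CPM in shCtrl and 9.06 and 10.6 CPM in shUSP9X. The groups stood far apart (log2 fold change -2.59, SE 0.10, edgeR adjusted p = 4.45e-18). Cep135, a protein of the centriole's inner scaffold, followed at -1.52 (0.13 and not called with the coding offset), and Cep192, which recruits kinases and pericentriolar material, at -1.17.

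Genes of the ring of proteins that brings the kinase Plk4 to the centriole wall were lower without an offset, and none of the 3 was with the coding offset. Cep152 had a log2 fold change of -0.98 (SE 0.11), its partner Cep63 one of -0.39 (SE 0.11) and Cep57 one of -0.99 (SE 0.08). With the coding offset Cep152 was at -0.13 and Cep57 at 0.01, neither called, and Cep63 was higher at 0.37 (edgeR adjusted p = 0.00559). Plk4 itself, the kinase that starts duplication, had 89.2 and 83.2 CPM in shCtrl and 53.9 and 54.4 CPM in shUSP9X (log2 fold change -0.67, SE 0.06, edgeR adjusted p = 2.03e-10). It was at -0.06 and not called with the GC content and length offset, and higher at 0.17 with the coding offset. The remaining lower genes of this group were Cep44 at -0.69, Cep97, part of the cap that limits centriole growth, at -0.56 (0.35 with the GC content and length offset, and not called without shCtrl replicate 1, at -0.39, or without shUSP9X replicate 2, at -0.32), Cep120 at -0.54 and Cep57l1 at -0.36. Cep57l1 was at 0.0027 and not called with the GC content and length offset, and higher at 0.70 with the coding offset. Cep76 and Cep85 did not pass the threshold without an offset, at 0.06 and -0.21, but were called with the GC content and length offset, Cep76 higher at 0.54 and Cep85 lower at -0.33. With the coding offset neither was called.

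Of the linker, pericentriolar and microtubule-organising genes, 4 of 6 were lower and 0 higher (median log2 fold change -0.82), beside 33.6 and 33.8% of all genes. With the coding offset 2 were lower and 1 higher, beside 27.1 and 37.1%. Cep350, a large protein that anchors microtubules, had 78.1 and 79.1 CPM in shCtrl and 20.3 and 18.0 CPM in shUSP9X (log2 fold change -2.03, SE 0.08, edgeR adjusted p = 3.08e-18). With the coding offset Cep350 was still lower, at -0.50. Cep70, which binds gamma-tubulin, had 11.4 and 11.3 CPM against 4.05 and 2.37 CPM (log2 fold change -1.80, SE 0.20, edgeR adjusted p = 1.09e-08). The 2 knockdown libraries of Cep70 differed more from each other than the controls did, and both lay below them. Without 1 library the value of Cep70 lay between -2.25 and -1.48, and with the coding offset it was -0.40 and not called (edgeR adjusted p = 0.0927). Cep250, which anchors the centrosome linker at the base of the centrioles, was lower at -0.24 (SE 0.06, edgeR adjusted p = 7.07e-04) and higher with the coding offset at 0.39 (edgeR adjusted p = 3.27e-06). The linker gene Cep68 did not pass the threshold without an offset, at -0.13, but was called lower with the coding offset, at -0.22.

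Both centriolar satellite genes were lower, beside 33.6% of all genes. With the coding offset 1 of the 2, Cep131, still was, beside 27.1% of all genes. Cep126 had 10.5 and 8.28 CPM in shCtrl and 1.62 and 2.26 CPM in shUSP9X (log2 fold change -2.29, SE 0.23, edgeR adjusted p = 1.67e-09), and with the coding offset it was at -0.51 and not called (edgeR adjusted p = 0.0585). Cep131 had 14.8 and 15.2 CPM in shCtrl and 8.80 and 10.3 CPM in shUSP9X (log2 fold change -0.66, SE 0.13, edgeR adjusted p = 1.12e-04). In neither gene did the groups overlap. Cep55, the abscission factor, had 110.5 and 117 CPM in shCtrl and 69.9 and 71.7 CPM in shUSP9X. Its groups did not overlap either (log2 fold change -0.68, SE 0.05, edgeR adjusted p = 1.73e-11), and its direction turned under the coding offset given further on.

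**Figure D2:**
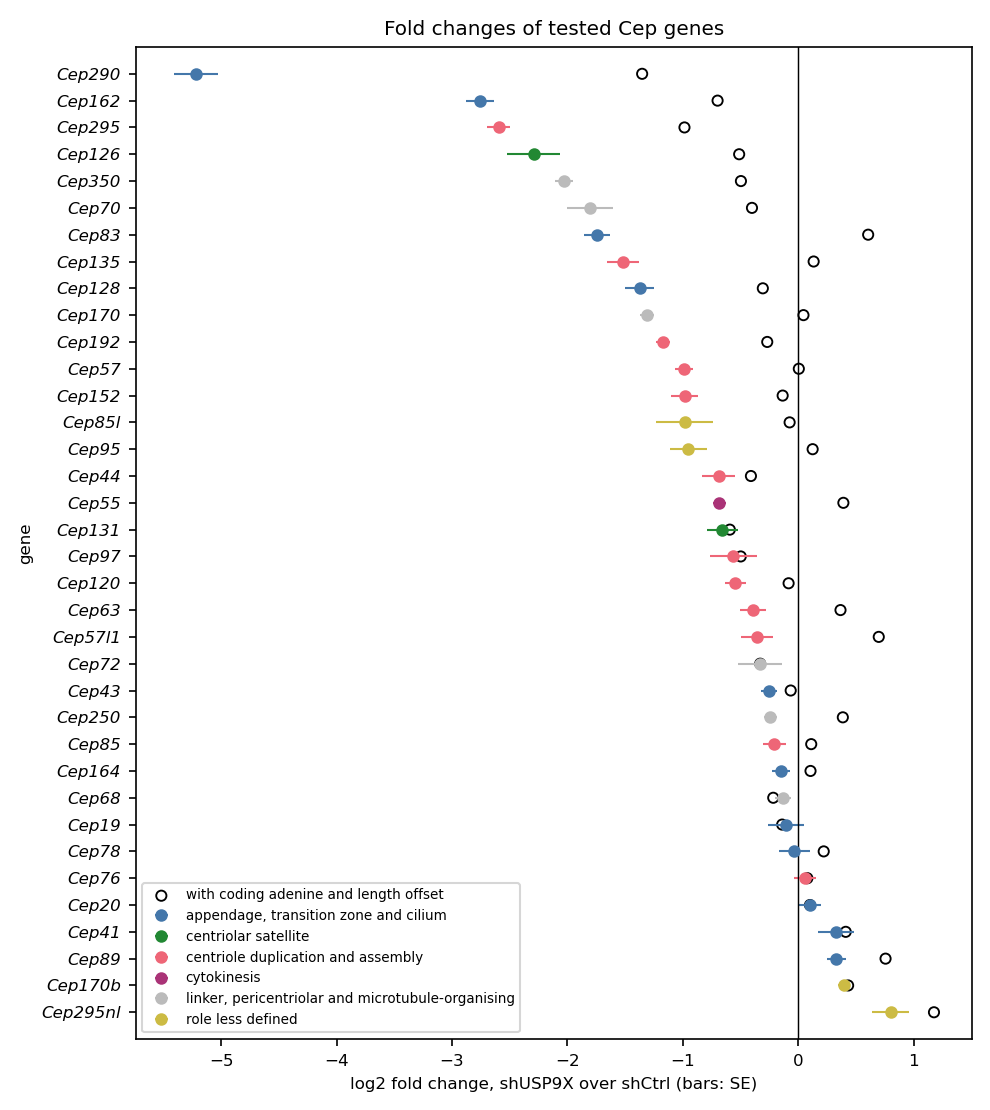
Log2 fold change of shUSP9X over shCtrl for 36 of the tested Cep genes (filled points, coloured by role, bars are the standard error), with the value after the coding adenine content and length offset as open circles. Filled points run from -5.22 for Cep290 to 0.80 for Cep295nl, and the open circles gather around 0, from -1.35 to 1.18 for the same genes.

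Paralog pairs gave both alike and unlike values. Cep170, a microtubule-binding protein of the subdistal appendages, was counted above with the linker, pericentriolar and microtubule-organising genes. It had 112 and 114 CPM in shCtrl and 43.9 and 47.4 CPM in shUSP9X (log2 fold change -1.31, SE 0.06, edgeR adjusted p = 1.35e-16). Its paralog Cep170b had 194 and 222 CPM in shCtrl and 278 and 269.9 CPM in shUSP9X (log2 fold change 0.40, SE 0.05, edgeR adjusted p = 5.03e-08). The pair thus changed in opposite directions, with no overlap of groups in either gene, although with the coding offset Cep170 was at 0.05 and not called (edgeR adjusted p = 0.494). Cep57 and Cep57l1 were both lower, at -0.99 and -0.36, but with the coding offset Cep57 was at 0.01 and not called and Cep57l1 was higher at 0.70 (edgeR adjusted p = 1.09e-04). Cep85l was lower at -0.98 (SE 0.25, edgeR adjusted p = 0.00106), and lost its call with the coding offset at -0.07 and with that for GC content and length at 0.16. Cep85 had 23.6 and 24.3 CPM in shCtrl and 20.4 and 21.2 CPM in shUSP9X and did not pass the threshold without an offset (-0.21, edgeR adjusted p = 0.0717). The difference within each pair was not tested, and reads shared between paralogs could be divided wrongly by the counting.

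Among the genes of less defined role, Cep295nl, named for its likeness to Cep295, had 7.90 and 5.88 CPM in shCtrl and 12.6 and 11.5 CPM in shUSP9X. It had the highest log2 fold change of the set, 0.80 (SE 0.16, edgeR adjusted p = 7.99e-05). Cep95 was lower at -0.95 (SE 0.16), and with the coding offset it was at 0.13 and not called (edgeR adjusted p = 0.502). FPKM is scaled for transcript length and so allows levels of different genes to be compared. By its mean over the 4 libraries, Cep170b (38.1), Cep55 (37.6) and Cep20 (19.9) were the 3 most abundant Cep mRNAs. The order in shUSP9X was the same (42.9, 28.8 and 20.5), but in shCtrl it was Cep55 (46.4), Cep170b (33.4) and Cep57 (24.4). Over the 4 libraries Cep85l (0.588) was the least abundant of those tested, but in shUSP9X Cep290 (0.0860) and Cep126 (0.4635) lay below Cep85l (0.479). In FPKM the group means of Cep55 were 46.4 ± 2.34 in shCtrl and 28.8 ± 0.494 in shUSP9X, and those of Cep290 were 3.36 ± 0.199 and 0.0860 ± 0.0113 (SD, n = 2).

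The CPM values of the 2 groups did not overlap for 27 Cep genes that were lower and 5 that were higher, where 41 and 41.2% of all genes tested showed the same. The CPM of Cep72, Cep19, Cep78, Cep76 and Cep20 overlapped. Transcript use, read from the length that counts and FPKM together imply, was within 10% between the groups for 31 of 37 Cep genes (83.8%, beside 88.1% of all genes tested). The mean length in shUSP9X was 0.684 of the shCtrl mean for Cep70, 0.717 for Cep97, 0.722 for Cep85l, 0.841 for Cep72, 0.845 for Cep295 and 1.11 for Cep63. The single libraries of the groups overlapped for Cep72 and Cep295 and not for the other 4, and no test was run. For these genes a comparison of FPKM values gives a different fold change from a comparison of counts, and for Cep290 it does not, with a ratio of 1.00.

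The Cep genes had long, adenine-rich coding sequences, and their fold changes followed both. Median coding length was 2421 bases in the Cep genes tested and 1387.5 in all genes, median adenine share 30.3 and 25.6%, and median exon number 16 and 9. Across the 37 Cep genes, log2 fold change fell as adenine share rose (Spearman's rho = -0.684) and as coding length rose (-0.454), and it rose with the GC content of the transcript (0.583). These are correlations across genes of the same 4 libraries, which are not independent replicates, and adenine share and coding length were hardly related to each other in the Cep genes (-0.0787). Over all genes the same relations were -0.348 for adenine share and -0.222 for coding length (n = 11416 genes), and 0.447 for GC content (n = 11430 genes).

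All 15 Cep genes in the 10% of genes richest in adenine, with 31.8 to 46.6% adenine, were lower in shUSP9X, with a median log2 fold change of -1.37. Of all 1142 genes in that class 77.1% were lower, with a median of -0.83. Where the coding sequence also exceeded 3000 bases, 7 of 7 Cep genes were lower, Cep290, Cep162, Cep295, Cep126, Cep135, Cep128 and Cep170, and so were 160 of all 163 genes. The median log2 fold change in this class was -2.29 for the Cep genes and -2.09 for all genes. Of the 22 Cep genes outside that class, 9 were lower and 4 higher, with a median of -0.18, beside 28.7% lower, 36.5% higher and a median of 0.05 for all genes there. Low GC content split the set in a similar way, since 20 of 26 Cep genes under the median GC content of 50.1% were lower and 0 higher, and 4 of the other 11 were lower and 4 higher. Of all genes under that median 51.4% were lower and 20.5% higher, and of the others 15.7 and 47.0%.

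**Figure D3:**
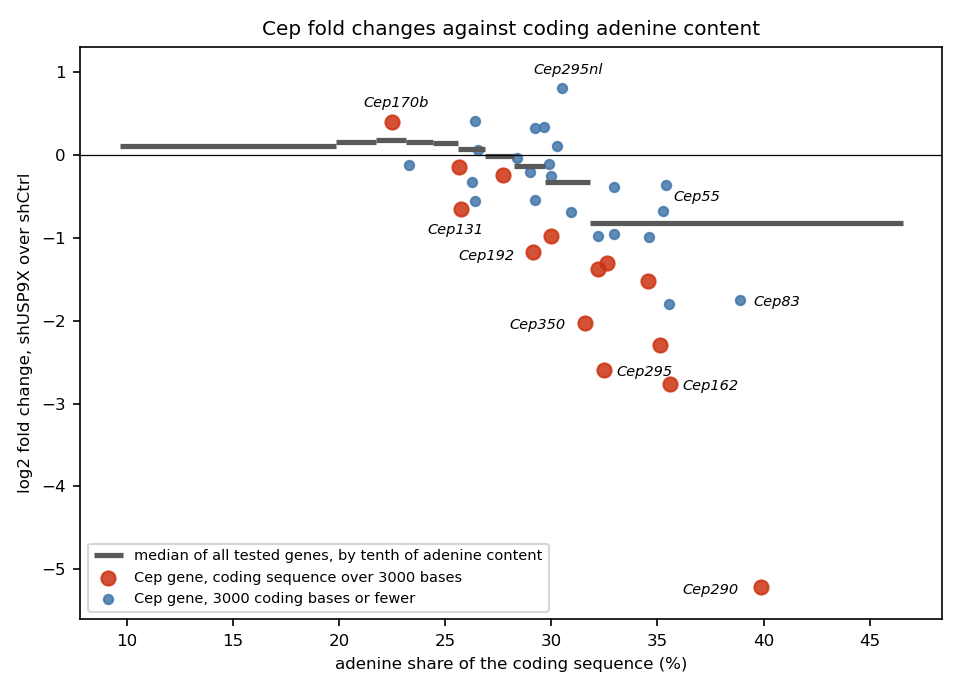
Log2 fold change of shUSP9X over shCtrl against the adenine share of the coding sequence for the 37 tested Cep genes (red, over 3000 coding bases; blue, 3000 or fewer), with grey bars for the median of all tested genes in each 10% of genes by adenine share. The grey bars drop to -0.83 in the highest class, and the red points there lie lower still, down to -5.22 for Cep290 with 39.9% adenine.

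When the trend on coding adenine content and coding length was removed from each library, the Cep genes no longer stood below other genes. Their median log2 fold change was 0.01 beside 0.05 for all genes. At an adjusted p under 0.05, 10 Cep genes were lower and 10 were higher, as were 27.1 and 37.1% of all genes. At the study's cutoff there were 4 on either side, against 12.7 and 11.5% of all genes. The 9 genes lower both with and without this offset were Cep128, Cep131, Cep162, Cep192, Cep290, Cep295, Cep350, Cep44 and Cep97. Cep290 then had -1.35 (edgeR adjusted p = 5.60e-05), Cep295 -0.99, Cep162 -0.70 and Cep131 -0.59. Cep97 and Cep350 had -0.50, Cep44 -0.41, Cep128 -0.31 and Cep192 -0.27. Calls were gained for Cep68 on the lower side, at -0.22, and for Cep41 on the higher side, at 0.41. Cep83, Cep55, Cep63, Cep57l1 and Cep250 were lower without the offset and higher with it, Cep55 at 0.39 (edgeR adjusted p = 3.04e-06). The other 10 lower genes lost their call, namely Cep120, Cep126, Cep135, Cep152, Cep170, Cep43, Cep57, Cep70, Cep85l and Cep95. All 4 higher genes stayed higher, from 0.43 for Cep170b to 1.18 for Cep295nl. The offset removes any difference between the groups that follows these features, whatever its origin, and it also moved Usp9x, to -2.72. Whether library preparation or the cells gave the trend was not tested.

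An offset for the GC content and length of the whole transcript took away less. With it 20 Cep genes were lower, 19 of them among the 24, and 6 were higher, 3 of them among the 4, beside 27.9 and 35.2% of all genes. At the study's cutoff 13 were lower and 0 higher, against 12.8 and 11.4%. The median log2 fold change of the Cep genes was -0.39. Cep290 was then at -3.66, Cep162 at -2.23 and Cep295 at -1.90. The calls lost were those of Cep250, Cep43, Cep57l1, Cep85l and Cep97 among the lower genes and of Cep89 among the higher ones. Calls were gained for Cep85 on the lower side and for Cep20, Cep41 and Cep76 on the higher side.

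Other genes of the centrosome were read against the same shares of all genes, 33.6% lower and 33.8% higher, or 27.1 and 37.1% with the coding offset. Of 19 centriolar satellite genes tested, 14 were lower and 1 higher (median log2 fold change -0.82), and with the coding offset 6 and 4. Pcm1, the satellite scaffold that holds Cep131 and Cep290 among others, had 79.9 and 81.3 CPM in shCtrl and 7.84 and 7.48 CPM in shUSP9X (log2 fold change -3.39, SE 0.09, edgeR adjusted p = 1.37e-21). With the coding offset it was still lower, at -1.19. The extremes of this list were Ccdc18 at -3.71, which was at -0.11 and not called with the coding offset, and Msto1 at 0.63. Appendage and linker genes outside the Cep set gave 14 lower and 1 higher of 19 (median -0.67; 7 and 5 with the coding offset), with Sclt1, a distal appendage gene like Cep83 and Cep164, at -3.10 (-0.58 and not called with the coding offset), Ankrd26 at -2.41 and Fbf1 at 0.25 (not called on log2(FPKM + 1) without a filter). Duplication factors gave 16 lower and 5 higher of 25 (median -0.44; 7 and 9 with the coding offset), led by Aspm at -3.06 and Cenpj at -1.75, with Rbm14 at 0.51 and Poc1a at 0.42 on the higher side. With the coding offset Aspm and Ankrd26 were still lower, at -1.68 and -0.56. Cenpj was at -0.17 and not called with the coding offset, and Poc1a at 0.14 and not called with that for GC content and length.

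The pericentriolar matrix was mixed, with 7 lower and 2 higher of 14 (median -0.23), and 7 and 5 with the coding offset. Akap9 at -3.46 and Ccdc88a at -4.15 were lowest, and Tubg1, the gamma-tubulin that nucleates microtubules, rose by 0.55, with Tubgcp2 at 0.26 (0.04 and not called with the GC content and length offset). Pcnt, the pericentrin scaffold, had 69.6 and 69.1 CPM in shCtrl and 71.4 and 68.7 CPM in shUSP9X and did not pass the threshold without an offset (0.02, edgeR adjusted p = 0.827). It was called higher with the GC content and length offset, at 0.23 (edgeR adjusted p = 9.95e-04), and with the coding offset, at 0.65 (edgeR adjusted p = 1.52e-09). Of transition zone and intraflagellar transport genes, 19 of 38 were lower and 1, Ift22 at 0.35 (not called with either offset or without any 1 library), was higher (median -0.31), and with the coding offset 8 and 7. Without an offset the lowest were Ift74 at -2.68 and Rpgrip1l at -1.69, and with the coding offset these were at -0.34 and -0.23 and not called.

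Genes of mitosis did not share a direction, with 14 lower and 12 higher of 30 (median 0.04), and 5 and 16 with the coding offset. The lowest were Cenpf at -4.70 and Mki67 at -4.45, and the highest Mybl2 at 0.84 and Plk1 at 0.69. With the coding offset Cenpf and Mki67 were still lower, at -1.96 and -1.69, and Mybl2 and Plk1 stayed higher. The abscission partners of Cep55 were higher in 8 and lower in 4 of 14 (median 0.16). Kif20b was at -3.96 (-1.35 and still lower with the coding offset) and Chmp4c at -0.96. Zfyve19 was at 0.49 (0.17 and not called with the GC content and length offset). With the coding offset Cep55 was higher, as were 10 of these 14, and 2 were lower. Under the same offset, the medians of all 7 lists lay between -0.09 and 0.24.

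**Figure D4:**
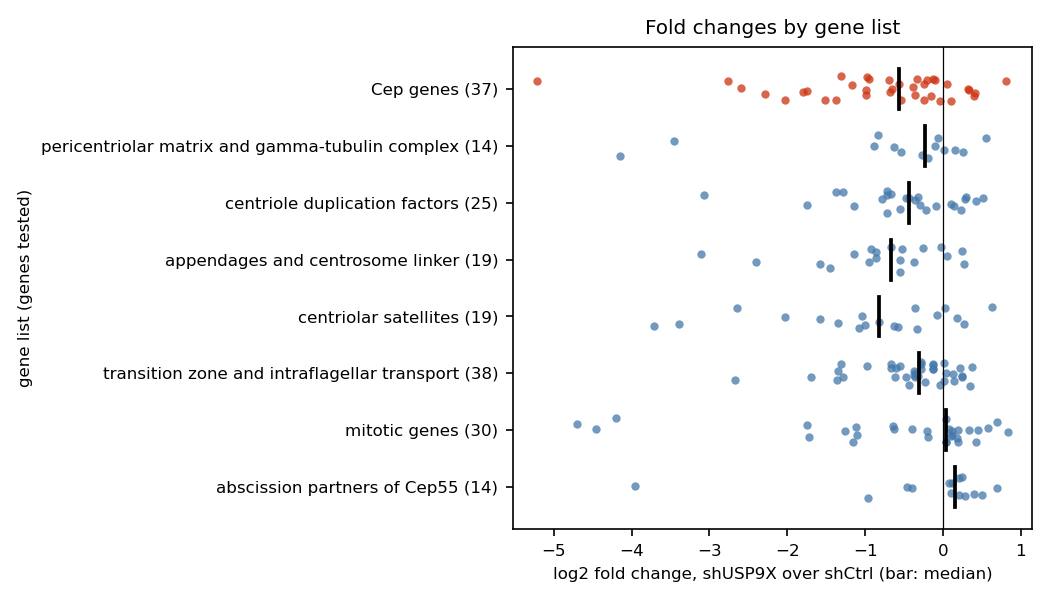
Log2 fold change of shUSP9X over shCtrl for each tested gene (points) of the Cep set (red) and of 7 lists of other centrosome and division genes (blue), with the median of each as a black bar and the number of genes tested in brackets. The Cep median of -0.56 lies between those of the satellite list, -0.82, and the abscission list, 0.16.

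Markers of other cells were read in the same libraries. Of 9 markers of multiciliated cells, which use many of these centrosomal proteins, 6 were at 0 and 8 at or under 3 counts in every library, with Ccno the most abundant at 1 to 5 counts. The summed level of this list was at most 0.506 CPM in a library. Of 7 leukocyte markers, Ptprc was at 0 in both controls and at 29 and 18 counts in the knockdown libraries. Adgre1 was likewise at 0 in the controls and at 58 and 59 counts in the knockdown, while Cd3e and C1qa were at 0 and Lyz2 and S100a8 at 2 counts or fewer in all 4. Their summed level was 0.0577 and 0 CPM in shCtrl and 4.40 and 4.75 CPM in shUSP9X. Among endothelial markers Pecam1 had 9 to 19 counts and Cdh5 and Kdr were at 0, with a summed level of at most 1.20 CPM. Of the fibroblast markers, Dcn went from 168 and 167 to 123 and 121 CPM, Pdgfra from 15.7 and 13.6 to 1.72 and 2.32 CPM, and Lum was at 0. The part of the leukocyte and fibroblast genes in the Cep results was not tested.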

How the data were processed

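Gene-level values of 2 shCtrl and 2 shUSP9X libraries were used, grouped by sample title. The authors mapped reads to GRCm38 and deposited an estimated count per gene, not normalised, and an FPKM value, scaled for transcript length and depth. The submitters' processing notes name fastp 0.18.0, Bowtie2 2.2.8, HISAT2, StringTie 1.3.1 and RSEM. The annotation release is not given in the sources used here. Between 6.40 and 6.69% of counts were not whole, so counts were rounded, although the test had been planned for whole counts.

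Genes passing filterByExpr (11448) were TMM-normalised and tested with edgeR 4.0.16 in R 4.3.3 (quasi-likelihood test, Benjamini-Hochberg adjustment across these genes, no block term). The biological coefficient of variation shared by all genes was 0.0352. Counts differed between libraries of a group by more than sampling noise (chi-square per gene 3.36 in shCtrl and 2.09 in shUSP9X). No molecular identifiers are described, so a floor of 3 counts covers counting error only. Coordinates, GC content and coding sequences came from the longest basic coding transcript of each gene in GENCODE M21, found for 99.8% (GC content) and 99.7% (coding sequence) of genes tested.

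The Cep genes, their roles and the other lists were chosen with earlier results of these data known. Genes described are Cep55, Cep131, Usp9x, Pcm1, Pcnt, Plk4, the 6 lowest and 4 highest Cep genes, the 3 of highest FPKM, 3 paralog pairs, and up to 2 lowest and 2 highest called genes per list. Some genes of the lists are not reported here by name. Other Cep genes were named after their values were seen. Alternatives were DESeq2 1.42.0, limma 3.58.1 on log2(FPKM + 1) and log2(FPKM + 0.1), other scalings and filters, unrounded counts, a block, each library left out, and a loess offset (span 0.3) for transcript GC content and length. The coding adenine and length offset was added after the data had been seen. The procedure was tested on simulated data.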

Additional observations from a re-analysis of the deposited data

How the results depend on the processing

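Over 17 alternatives the Cep genes lower at an adjusted p under 0.05 numbered 20 to 27 and those higher 4 to 6, and 18 of the 24 and 3 of the 4 kept their call in every one. With the coding adenine content and length offset added, 8 of the 24 and 3 of the 4 did. That offset gave 10 lower and 10 higher Cep genes, 4 and 4 at the study's cutoff, and a median log2 fold change of 0.0057. It turned the sign of Cep95 (0.13), Cep57l1 (0.70), Cep83 (0.61), Cep55 (0.39), Cep57 (0.0057), Cep63 (0.37), Cep135 (0.13), Cep85 (0.11), Cep250 (0.39), Cep78 (0.22), Cep164 (0.11), Cep170 (0.046) and Plk4 (0.17). Of these, Cep57l1, Cep83, Cep55, Cep63, Cep250 and Plk4 were called higher, and the others were not called. The offset by its construction removes what follows base content and length. The GC content and length offset gave 0 Cep genes higher at the study's cutoff and a median of -0.39. It turned the sign of Cep57l1 (0.0027), Cep97 (0.35), Cep85l (0.16) and Cep43 (0.11), none of them called. With the replicate block added to it the values were 0, -0.39, and 0.0021, 0.33, 0.16 and 0.11. On log2(FPKM + 1) without a filter the Cep median was -0.44. Ift22 reversed to -0.023 in the 3 fits on FPKM, and Pcnt, at 0.02 and not called without an offset, to -0.013 by library size only. Pcnt was called higher with the GC content and length offset (0.23) and the coding offset (0.65). Other causes were not tested.

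Leaving out each library in turn gave 22 to 24 lower and 4 to 5 higher Cep genes, 18 to 20 and 1 at the study's cutoff, a median from -0.63 to -0.49 and Usp9x from -3.89 to -3.80. Calls were lost for Cep97 (-0.39 without shCtrl replicate 1, -0.32 without shUSP9X replicate 2), Cep63 (-0.30 without shCtrl replicate 1, -0.32 without shUSP9X replicate 1) and Cep57l1 (-0.34, -0.36 and -0.30 without shCtrl replicates 1 and 2 and shUSP9X replicate 2), and gained for Cep72 and Cep41. Of genes not called, Cep19 (-0.23 to 0.0097), Cep78 (-0.10 to 0.047) and Pcnt (-0.0082 to 0.051) changed sign as libraries were left out. Same-numbered libraries did not deviate together (correlation -0.0453), so the numbers were not taken as pairs, and with a replicate block 24 Cep genes were lower and 4 higher. Usp9x ranged from -3.91 to -2.31. Under another scaling the all-gene median shifted by no more than 0.033. Low counts, as in the Cep290 knockdown libraries and Cep112, and 2 libraries per group limit the precision.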
